A study of Mus musculus with 18 samples.

Results

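Brain cortex taken 6 days after an ischemic injury was compared with brain cortex taken 2 days after it. The comparison was chosen by library, as the 3 day 6 and the 3 day 2 cortex libraries of the deposited gene count table, which are 6 of the 18 libraries of the series. All genes of the table entered it: of 25918 gene names, 18151 passed the filter on low counts and were tested, and every one of these is accounted for in the counts below. The mice were of the strain BALB/c, an inbred albino laboratory strain; the labels name no transgene, no drug, no age and no sex. The day 2 and day 6 groups are labelled only as ischemic injury in brain of that many days, and the third cortex group as a control for brain, with no word on a sham operation. Per the labels' protocols the tissue harvested held both the ischemic and the peri-ischemic region, so each library holds both in shares that the labels do not give. The series also holds interparietal bone of the skull from the same kind of injury, not used here. No label says whether a library is 1 animal or a pool, so a p-value below measures the spread between these libraries.

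Loss of blood flow kills neurons in the core of the territory within hours and sets off an ordered response around it. Resident microglia and astrocytes and the vessel wall release chemokines and cytokines, circulating neutrophils and then monocytes enter, and glia divide and form a border around the dead tissue. Later, phagocytes take up cell debris and myelin, digest it in lysosomes and have to export or store the cholesterol it carries, while collagen and other matrix are laid down and spared neurons restore their own expression. Days 2 and 6 sample the earlier and the later portion of that course. In whole tissue, fewer cells of a type and less RNA per cell cannot be told apart, and this holds for each change described here.

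Total counts ranged from 17199036 to 18476057 at day 2, from 13005050 to 22236424 at day 6 and from 23673255 to 27654269 in the controls. All 9 libraries carried cortical layer transcription factors, with a summed level of 1551 to 2768 CPM over 20 genes (CPM are counts scaled to a common library total with TMM factors), while 4 bone cell genes summed to 7.59 to 14.4 CPM. The libraries are written C-1 to C-3 for the controls, D2-1 to D2-3 for day 2 and D6-1 to D6-3 for day 6, by their replicate numbers. Some of them stood apart. D2-3 had a summed striatal neuron level of 1047 CPM over 8 genes, against 124 to 169 in the other day 2 libraries and 116 to 153 at day 6. That level was 156.5, 407 and 569 CPM in C-1, C-2 and C-3, so it was uneven among the controls too. D2-2 had 231 CPM over 8 choroid plexus and ependymal genes against 10.4 to 22.4 in the other injured libraries. D6-1 had the lowest day 6 level of phagocyte genes (9104 CPM against 14295 and 18859) and of collagen genes (863 against 1844 and 2645). Ribosomal RNA, other small structural RNA and Lars2 together took 0.810% to 2.45% of counts at day 6, most in D6-3, 0.0878% to 0.299% at day 2 and 0.0240% to 0.0341% in controls. Of the 217 such genes 25 were tested, and 6 rose and 0 fell (edgeR), with a median log2 change of 0.01; the rRNA gene CT010467.1, Lars2, Rn7sk and Rny1 are among the largest rises. The calls of Lars2 and Rn7sk were each lost in 9 of 19 alternatives and that of CT010467.1 in 5, the replicate block and the fit of the 6 libraries alone among them in each case. Without these 217 genes in the fit, which is 1 of the 19 alternatives and could not test them, 2089 genes were called in place of 2099.

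Between day 2 and day 6, 2099 of 18151 genes changed in edgeR's quasi-likelihood test at a Benjamini-Hochberg adjusted p below 0.05: 962 rose, which is 5.3% of the genes tested, and 1137 fell, which is 6.26%. The falls were larger than the rises, with 427 genes falling and 201 rising by at least 2-fold, and 159 falling and 67 rising by at least 4-fold. The median log2 change over all genes tested was -0.02, with quartiles of -0.27 and 0.21, so the centre of the distribution stood near 0. All 3 day 6 libraries lay above all 3 day 2 libraries in 13.9% of genes tested and below them in 16.6%. The 12 largest falls among genes of at least 5 CPM included Tgm1, a crosslinking enzyme of skin also induced in glia by injury, at 97.02, 153 and 131 CPM at day 2 and 5.72, 9.34 and 8.89 CPM at day 6, and Slfn4, a myeloid interferon-induced gene, at 14.4, 19.1 and 36.7 CPM and 0.566, 1.33 and 0.808 CPM. Both had control libraries below 0.3 CPM and no overlap between days, with changes of -4.00 (SE 0.28, adjusted p = 7.04e-05) and -4.66 (SE 0.46, adjusted p = 0.000204). Genes that rose or fell were also ranked by their difference of mean CPM, with their changes still given on the log2 scale. The largest rises by that rank included Sparcl1, a synapse-promoting protein of astrocytes (0.66 ± 0.10), and Camk2n1, an inhibitor of the synaptic kinase CaMKII (0.69 ± 0.15). The largest falls included Tmsb4x, which binds actin (-0.41 ± 0.11), and Eef1a1, a translation elongation factor with many pseudogene copies (-0.34 ± 0.10). The call of Tmsb4x was lost without D2-2, D2-3, D6-1 or D6-3 (largest adjusted p = 0.138) and that of Eef1a1 in 11 of 19 alternatives. The shares of 5.3% and 6.26% are the background for the counts of list members below. In most lists, 1 member called in a direction is near that background and is described as a single gene. In lists of 20 or more genes, 2 called members are not far above it either. Leaving out 1 library changed the count most for D6-3 (910 calls), D2-3 (1245) and D6-1 (1273). Changes are given as log2 day 6 over day 2 ± the standard error of the fit, with adjusted p from edgeR, and gene positions refer to the mm10 build (GENCODE M21 annotation).

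**Figure D1:**
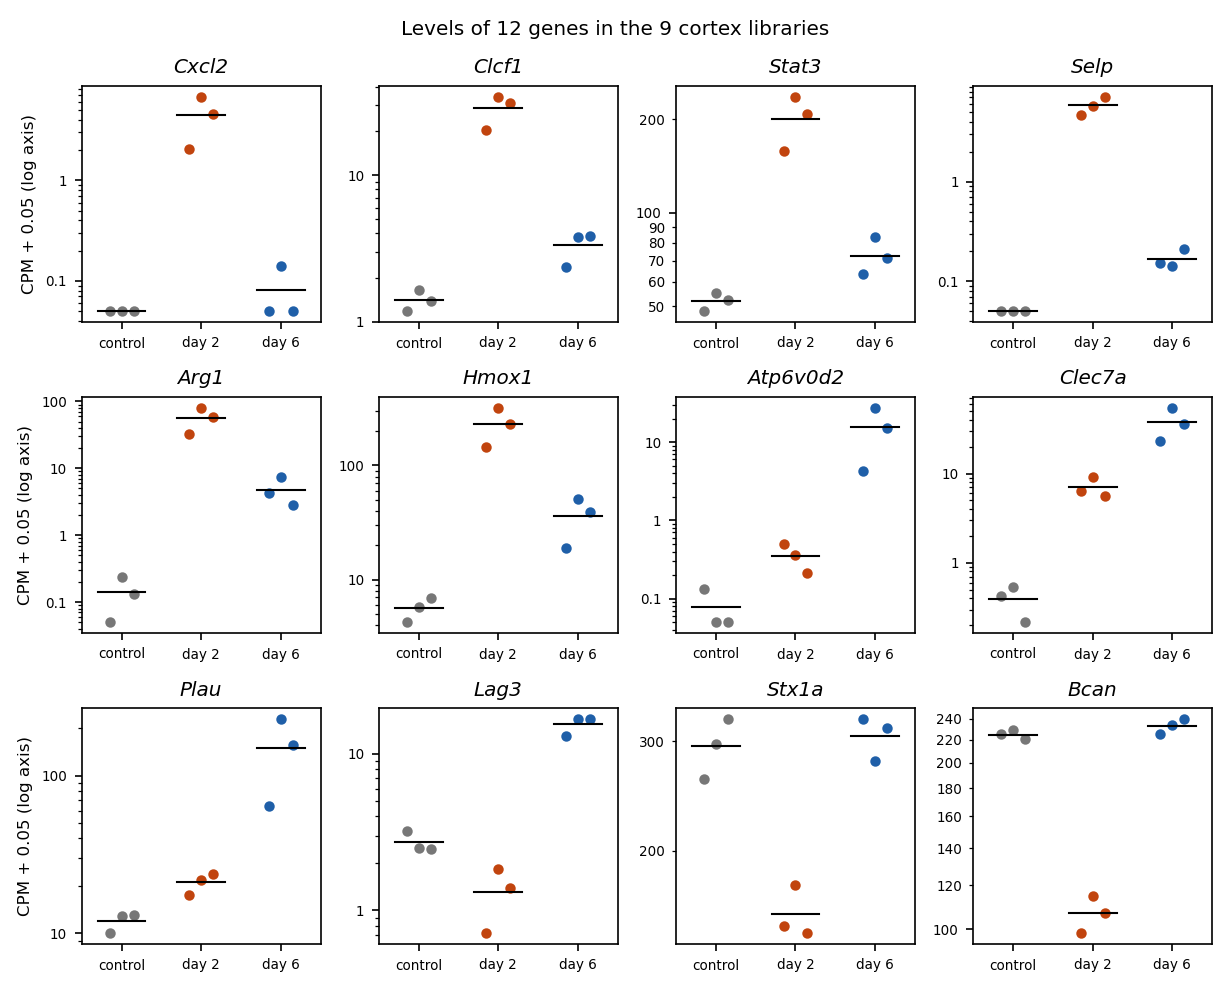
Levels of 12 genes in each of the 9 cortex libraries, as CPM + 0.05 on a log axis, in controls (grey), at day 2 (orange) and at day 6 (blue); points are libraries and bars are means. Cxcl2, Clcf1, Stat3, Selp, Arg1 and Hmox1 are highest at day 2, Atp6v0d2, Clec7a, Plau and Lag3 are highest at day 6, and Stx1a and Bcan are lowest at day 2.

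Among 73 gene lists, the signals that call in leukocytes fell together. Of 9 CXC chemokines tested, 5 fell and 0 rose, with a median of -2.04, and of 11 CC chemokines 5 fell and 0 rose, with a median of -2.23. Cxcl1, Cxcl2 and Cxcl3 attract neutrophils through the receptor CXCR2 and lie together on chromosome 5. Their promoters share the pattern GGGA, any base, TTTCC, a binding sequence of NF-kB, the transcription factor that drives inflammatory genes, and are shown here because all 3 genes fell. Each line gives RefSeq bases of GRCm38.p6 on the plus strand with the motif in capitals, at chr5:90891134-90891223, chr5:90903762-90903851 and chr5:90785988-90786077.

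Cxcl1: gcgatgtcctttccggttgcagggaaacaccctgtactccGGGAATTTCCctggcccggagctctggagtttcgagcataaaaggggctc
Cxcl2: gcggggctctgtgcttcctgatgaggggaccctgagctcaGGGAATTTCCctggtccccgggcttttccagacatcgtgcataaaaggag
Cxcl3: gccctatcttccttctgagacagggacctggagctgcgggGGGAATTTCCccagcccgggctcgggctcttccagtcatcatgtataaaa

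The capitals lie 71 to 62 bases before the start site in Cxcl1, 97 to 88 in Cxcl2 and 73 to 64 in Cxcl3. On either strand this motif stood in the promoters of 3 of the 7 CXC chemokines with a RefSeq promoter (42.9%) and in 0 of 6 CC chemokines, against 0.411% of all 32851 promoters of that length (250 bases before to 50 after the start) and 0.569% of the 12486 tested genes with a promoter; both shares are given for each motif below, since list members come from the tested genes. Cxcl2 (chr5:90903871-90905938) stood at 1.99, 6.71 and 4.53 CPM in the 3 day 2 libraries and at 0, 0.0916 and 0 CPM at day 6. It was undetected in the controls and in all but 1 of the day 6 libraries, and the day 2 libraries lay above all others. Its 251 day 2 counts against 2 at day 6 give a ratio of 120 (95% counting interval 32.9 to 996; adjusted p = 0.000662). Cxcl3 had 76 counts against 2, a ratio of 36.3 (9.72 to 305; adjusted p = 0.0109, 0.058 without D6-3). Cxcl10, an interferon-induced attractant of T cells, fell by 2.47 (SE 0.45), while the constitutive Cxcl12 and Cxcl14 stood at 0.31 ± 0.16 and 0.31 ± 0.13 and did not pass the test.

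Without D2-2, 2 CXC chemokine genes were called higher. CC chemokines did not all follow the same course. Ccl6, a macrophage-derived chemokine, was at 16.7, 37.7 and 21.1 CPM at day 2 and 2.73, 4.304 and 3.96 CPM at day 6, with a control mean of 0.848 CPM. The groups did not overlap, and Ccl6 fell by 2.78 on the log2 scale (SE 0.35, adjusted p = 0.000725). Ccl3, made by microglia and macrophages, was at 2.44, 5.84 and 6.63 CPM at day 2 and 2.73, 8.47 and 3.72 CPM at day 6. These ranges overlapped, and its change of 0.01 ± 0.53 (adjusted p = 0.991) spans both a fall and a rise. The receptor genes went down with their ligands: of 8 chemokine receptors 5 fell and 0 rose. Ccr2 on monocytes fell by 2.49 (SE 0.31), whereas the microglial Cx3cr1 stood at 0.40 ± 0.22 (adjusted p = 0.283).

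Cytokines of the IL-6 family signal through the shared receptor chain gp130 (Il6st) to the transcription factor STAT3, and genes at several steps of that route fell. Of 14 tested, 8 fell and 0 rose, with a median of -0.91. Clcf1, a ligand of the ciliary neurotrophic factor receptor (chr19:4214238-4223490), was at 20.1, 34.2 and 31.2 CPM at day 2 and at 2.32, 3.71 and 3.797 CPM at day 6, against 1.13, 1.599 and 1.33 CPM in controls. The lowest day 2 library was above the highest day 6 library, which in turn was above all controls. Clcf1 fell by 3.13 on the log2 scale (SE 0.25, adjusted p = 1.39e-05). Il6 itself was near its limit of detection at day 6, with 52 counts over the 3 day 2 libraries and 1 at day 6, a ratio of 49.7 (95% counting interval 8.54 to 2001; adjusted p = 0.0084). Downstream, Stat3 was at 158, 237 and 207 CPM at day 2 and 63.3, 83.5 and 71.7 CPM at day 6, against 48.2, 55.3 and 52.3 CPM in controls. All day 2 libraries lay above all day 6 libraries, and Stat3 fell by 1.46 (SE 0.14, adjusted p = 8.52e-05; its exons overlap those of Stat5a on the other strand, and the strand setting of the counting is not given in the sources used here). Socs3, the feedback inhibitor of this pathway, fell by 2.15 (SE 0.22) and the oncostatin M receptor Osmr fell by 1.32 (SE 0.17). Lifr and the ligand Osm did not pass the test, at -0.03 ± 0.11 and 0.42 ± 0.51.

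Ligands of the IL-1 family were unequal. Of 12 genes 6 fell and 0 rose: Il1b fell by 3.57 (SE 0.56), its decoy receptor Il1r2 fell by 2.74 (SE 0.56) and the alarmin Il33, released by damaged glia, fell by 1.46 (SE 0.23). Il1a and the receptor antagonist Il1rn stood at 0.36 ± 0.25 and 0.64 ± 1.17, neither past the test, and Il1rn was at 0.309, 16.3 and 7.84 CPM in the day 6 libraries. In the TNF superfamily Tnf and Tnfrsf12a fell and Tnfrsf21 rose among 16 genes, and that rise is a share near the 5.3% of all genes. The call of Tnf (adjusted p = 0.0164) was lost without D2-2, D2-3, D6-1 or D6-3, with a largest adjusted p of 0.0722. Interferon-stimulated genes fell as a group: 16 of 23 fell, 0 rose, and the day 6 libraries lay below the day 2 libraries in all 23, against 16.6% of all genes. Without D6-1 or without D6-3, 10 of the 23 passed the test. Ifitm3, a membrane protein that blocks virus entry, was at 58.9, 96.8 and 69.7 CPM at day 2 and 17.04, 28.9 and 20.9 CPM at day 6. The groups did not overlap and the change was -1.75 ± 0.22 (adjusted p = 0.00087). The interferon-stimulated response element, searched as GAAA, any 2 bases, GAAA, was in 11 of the 17 promoters of this list (64.7%) against 3.44% of all promoters and 3.68% of tested genes. Against the same controls, 23 of 23 were higher at day 2, where 14.7% of all genes were, and 12 of 23 at day 6, where 7.93% were; both comparisons share the control libraries.

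Systemic inflammation genes that the brain also makes fell. Of 11 acute phase and iron-binding genes 8 fell and 0 rose, with a median of -2.05. Cp, ceruloplasmin, which oxidizes iron for export, was at 107, 142 and 142 CPM at day 2 and 21.9, 34.1 and 23.2 CPM at day 6, against 19.1, 14.4 and 13.1 CPM in controls. The day 6 libraries lay above the controls and far below day 2, and Cp fell by 2.30 (SE 0.20, adjusted p = 0.000114). The serum amyloid gene Saa3 fell by 3.77 (SE 0.39) from 14.6, 24.5 and 13.7 CPM at day 2, and the zinc and iron importer Slc39a14 fell by 0.69 (SE 0.14). Among 17 genes of prostaglandins and leukotrienes 3 fell and 0 rose, in the order of the pathway Pla2g4a, which frees arachidonic acid (-1.41 ± 0.21), Ptgs2, the inducible cyclooxygenase (-0.53 ± 0.14), and Ptges, which makes prostaglandin E (-1.28 ± 0.28). The call of Ptgs2 was lost without any 1 day 2 library, D6-2 or D6-3 (largest adjusted p = 0.121), and that of Ptges without D6-1. Of 18 complement genes 3 fell and 1 rose, the complement receptor chain Itgax (3.65 ± 0.58), a share near the 5.3% of all genes that rose. C3, the central component, was at 19.2, 37.2 and 19.8 CPM at day 2 and 7.93, 10.7 and 9.37 CPM at day 6, against 0.293, 0.149 and 0.208 CPM in controls, and fell by 1.44 (SE 0.25, adjusted p = 0.00304). The receptor C5ar1 fell by 1.83 (SE 0.35), while C1qa, C1qb and C1qc, made by microglia, stood at 0.65 ± 0.21, 0.44 ± 0.20 and 0.53 ± 0.24 and did not pass the test. The count of falls was 5 without C-1, and that of rises 3 without D2-2 and 2 without D6-1.

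Molecules by which leukocytes leave the blood fell too. Of 16 leukocyte adhesion genes 6 fell and 0 rose, with a median of -0.58. Selp encodes P-selectin, which activated endothelium and platelets use to catch rolling leukocytes (chr1:164115264-164150026; its exons overlap 2 unnamed loci on the other strand). It stood at 4.599, 5.74 and 7.06 CPM at day 2 and 0.103, 0.0916 and 0.162 CPM at day 6, with no count in any control. The 2 days were far apart in every library, and Selp fell by 5.61 (SE 0.47, adjusted p = 6.1e-05). Sele, the E-selectin gene, fell by 4.97 (SE 0.83) and Pecam1 at endothelial junctions fell by 1.11 (SE 0.15). Icam1 and the leukocyte integrins Itgam and Itgb2 did not pass the test, at -0.53 ± 0.27, 0.06 ± 0.22 and 0.04 ± 0.29.

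Of 13 mature neutrophil genes 9 fell and 0 rose, with a median of -2.48, which was the same with genes at 0 counts set at their bounds. Il1f9 had no day 6 count and was at least 38.6-fold lower there, and Stfa2l1, a neutrophil stefin, at least 13.4-fold lower (floor of 3 counts over the day 6 group; counting error only). Csf3r, the receptor for the neutrophil growth factor G-CSF, was an exception at 29.4, 46.9 and 37.1 CPM against 27.4, 40.2 and 35.4 CPM. These ranges overlapped, and its change was -0.14 ± 0.19 (adjusted p = 0.691). Of 15 inflammatory monocyte genes 6 fell, among them Chil3 (-4.25 ± 0.67) and Plac8 (-2.91 ± 0.64), and 1 rose, the lysozyme gene Lyz2, which macrophages and microglia also express. Lyz2 was at 136, 249 and 191 CPM at day 2 and 412, 1590.5 and 1013 CPM at day 6, with a change of 2.39 ± 0.49 (adjusted p = 0.0251), and lost its call in 6 of 19 alternatives, among them those without any 1 day 2 library or D6-3. Without D6-1, 2 monocyte genes rose. Of 20 T and NK cell genes 5 passed the filter on low counts, with a summed level of 4.69 to 5.95 CPM at day 6 and 2.77, 3.74 and 21.4 CPM at day 2. The high value was Cd4 in D2-3, the library with the highest striatal level (Cd4 at 0.776, 0.256 and 17.8 CPM at day 2). The 3 neutrophil precursor granule genes tested summed to 0.549 to 2.68 CPM in the injured libraries.

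**Figure D2:**
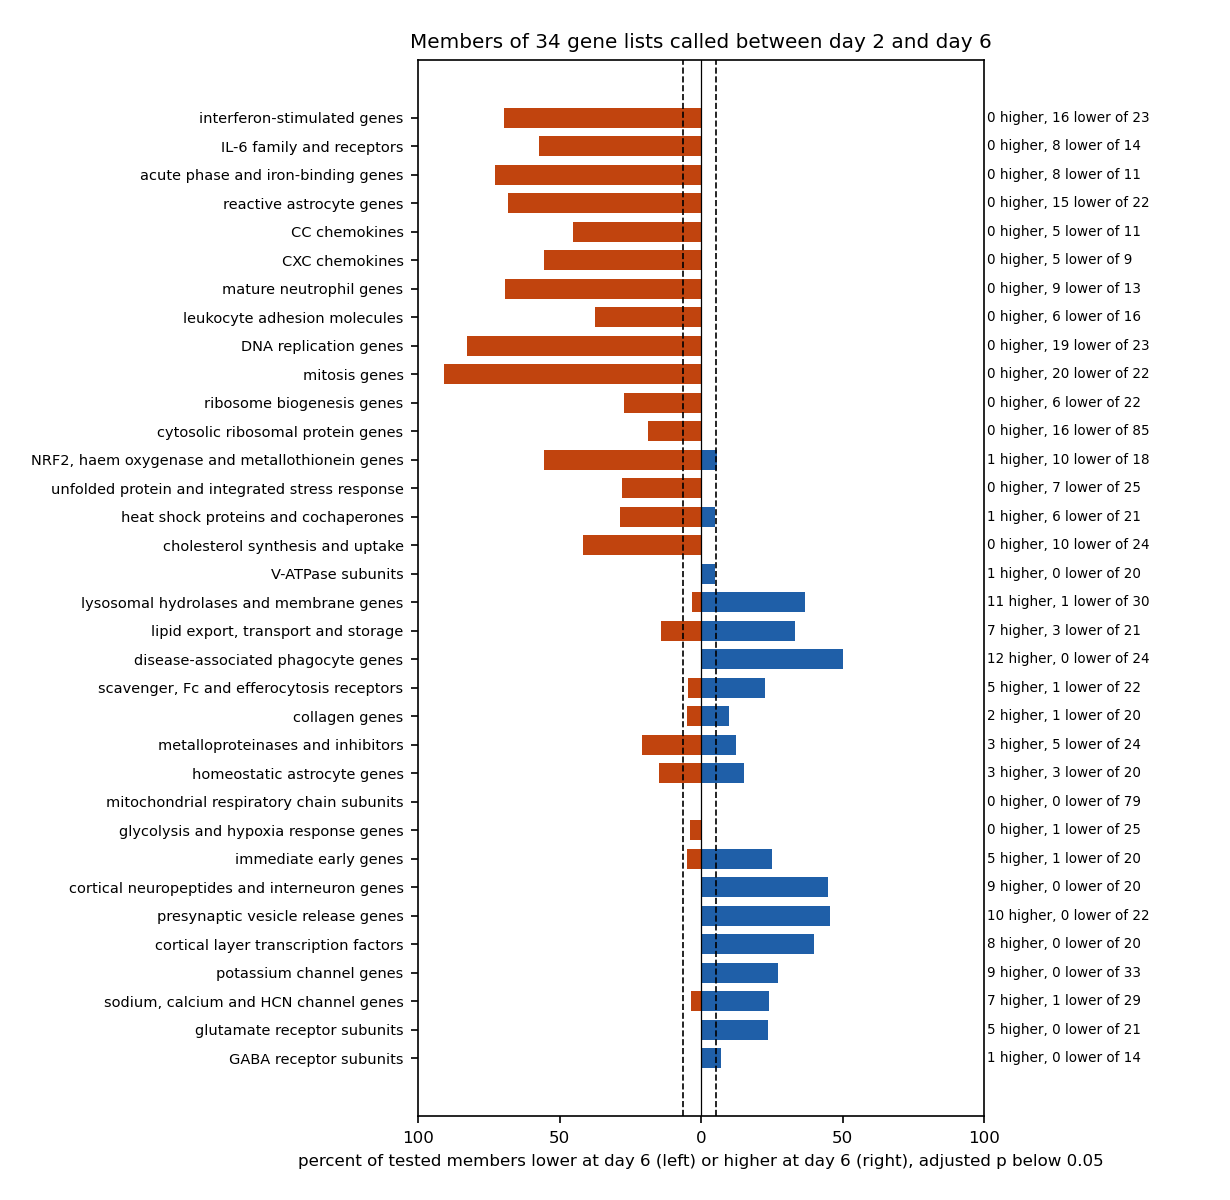
Percent of tested members called lower at day 6 (orange, left) or higher at day 6 (blue, right) in 34 of the 73 gene lists, with the counts at the right; dashed lines mark the shares over all genes tested, 5.3% higher and 6.26% lower. Inflammatory, dividing-cell and stress lists extend to the left, and phagocyte, lysosomal and neuronal lists to the right.

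Genes of debris-clearing phagocytes moved the other way. The disease-associated phagocyte list holds genes that microglia and macrophages switch on around lipid debris in many brain disorders, and 12 of 24 rose while 0 fell, with a median of 1.10. The count was 17 without D6-1, the library lowest for these genes, and 7 without D6-3. Clec7a, the beta-glucan receptor dectin-1 (chr6:129461591-129472779; the annotation types it as a polymorphic pseudogene), was at 6.37, 9.12 and 5.55 CPM at day 2 and 23.1, 54.4 and 36.2 CPM at day 6, against 0.377, 0.483 and 0.167 CPM in controls. Each day 6 library exceeded each day 2 library, and Clec7a rose by 2.43 ± 0.32 (adjusted p = 0.00132). Igf1, a growth factor that supports neurons and oligodendrocytes, was at 12.4, 11.9 and 7.66 CPM at day 2, near the controls at 13.03, 12.8 and 11.8 CPM, and at 28.2, 60.9 and 40.6 CPM at day 6. It rose by 2.02 ± 0.27 (adjusted p = 0.00128), with its day 2 change against controls at -0.23 and its day 6 change at 1.79. Trem2, the lipid receptor needed for this state in microglia, rose by 1.57 ± 0.26, and its adaptor Tyrobp by 1.08 ± 0.25. Spp1, osteopontin, had a mean of 667 CPM at day 2 and 2363 CPM at day 6 but overlapped between days and did not pass the test (adjusted p = 0.1).

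A few surface proteins better known from lymphocytes rose too. Lag3, an inhibitory receptor of T cells that microglia also express (chr6:124904361-124911705), was at 0.665, 1.79 and 1.35 CPM at day 2, 12.9, 16.7 and 16.7 CPM at day 6 and 3.18, 2.45 and 2.42 CPM in controls. All day 2 libraries were below the controls and all day 6 libraries above both, and the rise from day 2 was 3.59 ± 0.30 (adjusted p = 1.97e-05). Cd22, a sialic acid receptor of B cells that microglia also express, stood at 0.997, 1.23 and 0.971 CPM at day 2 and 3.19, 10.9 and 5.898 CPM at day 6. It rose by 2.64 ± 0.45 (adjusted p = 0.0028), while Ighm and Jchain of the same B lineage list stood at -0.09 ± 0.25 and 0.04 ± 0.48 and did not pass the test. Of 4 B lineage genes tested Cd22 was the 1 that rose.

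Markers of resting microglia were mixed. Of 14 homeostatic microglia genes 3 rose and 1 fell, and 5 rose without D6-1. P2ry12, the receptor for extracellular ADP by which microglia sense injury, was at 38.7, 33.9 and 45.99 CPM at day 2, 77.3, 84.3 and 69.97 CPM at day 6 and 57.9, 52.1 and 57.01 CPM in controls. The day 2 libraries were the lowest of the 9 and the day 6 libraries the highest, and P2ry12 rose by 0.97 ± 0.12 (adjusted p = 0.000267). Siglech rose by 1.04 ± 0.17, Fcrls fell by 0.85 (SE 0.14), and Tmem119 stood at 0.30 ± 0.21 without passing the test. Of 12 genes of macrophages at the borders of the brain 4 fell, including the mannose receptor Mrc1 (-1.63 ± 0.27) and the hyaluronan receptor Lyve1 (-2.27 ± 0.57), while Ms4a7 rose by 1.86 ± 0.51. The count of falls was 1 without D2-2 and 2 without D6-1. The call of Ms4a7 was lost in 7 of 19 alternatives and that of Lyve1 in 4.

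Some receptors for dying cells and lysosomal enzymes rose. Of 22 genes of scavenger, Fc and efferocytosis receptors 5 rose, 1 fell and 16 were not called, with a median of 0.11. The 5 that rose take part in binding phosphatidylserine on dying cells, a shared trait seen after the calls and not tested. They were the bridging proteins Mfge8 (0.92 ± 0.17) and Gas6 (0.54 ± 0.14) and the receptors Tyro3 (0.61 ± 0.12), Itgb5 (0.69 ± 0.16) and Mertk (0.53 ± 0.15). In Gas6 and Mertk the libraries of the 2 days overlapped, and Gas6 and Itgb5 lost their calls in 4 and 3 of 19 alternatives. Fcgr1, a high-affinity antibody receptor, fell by 0.75 (SE 0.20), a call lost without D2-2, D2-3, D6-1 or D6-3. The count of rises was 2 to 3 without D2-1, D2-3, D6-2 or D6-3. Of 30 lysosomal genes 11 rose and 1 fell, with a median of 0.58. Against the same controls 23 were higher at day 2, where 14.7% of all genes were, and 28 at day 6, where 7.93% were. Among lysosomal genes the count of rises was 21 without D6-1, and 6 to 7 without D2-1, D2-3, D6-2 or D6-3. Ctsd, the main aspartic protease of the lysosome (chr7:142375911-142388038), was at 219, 375 and 285 CPM at day 2 and 722, 1299.8 and 1062 CPM at day 6, against 109, 115 and 109 CPM in controls. The 3 groups did not overlap, and Ctsd rose by 1.81 ± 0.23 (adjusted p = 0.00185; it shares exon sequence with the unnamed locus Gm49369 on the same strand). Hexa, Man2b1 and Ctsa, which digest glycolipids and glycoproteins, rose by 0.97 ± 0.16, 0.95 ± 0.16 and 0.93 ± 0.17. Ctsc went the other way, at 136, 162 and 139.7 CPM at day 2 and 33.1, 62.8 and 45.8 CPM at day 6. It activates the serine proteases of neutrophils and fell by 1.62 (SE 0.24, adjusted p = 0.0037).

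The Ctsd promoter is shown because it carries the CLEAR element, TCACGTGA, by which the transcription factor TFEB turns on lysosomal genes (minus strand of chr7:142387879-142387966, capitals 99 to 92 bases before the start).

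Ctsd: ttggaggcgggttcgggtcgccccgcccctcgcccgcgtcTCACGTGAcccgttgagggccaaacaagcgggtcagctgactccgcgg

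This element was in 4 of the 24 lysosomal promoters found in RefSeq (16.7%, Ctsa, Ctsd, Gla and Mcoln1) and in 3 of 14 promoters of V-ATPase subunits (21.4%). It was in 0.974% of all promoters and 1.93% of tested genes. Ctsa and Ctsd rose, while Gla, Mcoln1 and the 3 V-ATPase genes with the element were not called. Atp6v0d2 is not among those 3. The V-ATPase is the pump that acidifies lysosomes, and of its 20 subunit genes only Atp6v0d2 rose in the edgeR fit, with 0 falling and a median of 0.13; 2 rose without D6-1, D6-2 or C-1. Atp6v0d2 (chr4:19876841-19922605) is the subunit form of osteoclasts and some macrophages. It was at 0.443, 0.308 and 0.162 CPM at day 2 and 4.27, 27.4 and 15.3 CPM at day 6, with 2 counts over the 3 control libraries. The lowest day 6 library was above the highest day 2 library, and Atp6v0d2 rose by 5.66 ± 0.79 (adjusted p = 0.00289). The widely expressed form Atp6v0d1 stood at 0.18 ± 0.09 (adjusted p = 0.241). Acp5, the acid phosphatase of osteoclasts and tissue macrophages, rose by 2.62 ± 0.50, whereas Ctsk and the fusion regulator Nfatc1 of the same list did not pass the test, at 0.86 ± 0.28 and -0.08 ± 0.26.

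Genes that move lipid out of cells and genes that make cholesterol changed in opposite directions. Abca1 and Abcg1, the pumps that load cholesterol onto lipoproteins, rose by 0.86 ± 0.16 and 0.75 ± 0.12. Abca1 was at 114, 133 and 141 CPM at day 2 and 175, 301 and 226 CPM at day 6, against 51.02, 45.7 and 47.8 CPM in controls, and the 3 groups did not overlap. Pltp, which transfers phospholipid between lipoproteins, rose by 1.01 ± 0.17, as did Mylip, a ubiquitin ligase gene induced by sterols through LXR, by 0.53 ± 0.13. In all, 7 of 21 genes of lipid export, transport and storage rose and 3 fell. The 3 were Apod and Fabp7, which astrocytes express, (-1.40 ± 0.11 and -1.08 ± 0.13), and Plin4 (-1.42 ± 0.39), which lost its call in 5 of 19 alternatives, with limma voom and without D2-2 or any 1 day 6 library (largest adjusted p = 0.137).

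In the cholesterol synthesis and uptake list 10 of 24 fell and 0 rose, with a median of -0.33. Msmo1, a sterol oxidase late in the pathway, was at 75.5, 71.6 and 83.2 CPM at day 2 and 47.7, 43.1 and 42.01 CPM at day 6, against 86.5, 85.2 and 84.6 CPM in controls. The days did not overlap, and Msmo1 fell by 0.79 (SE 0.09, adjusted p = 0.000208). Sqle, which commits squalene to sterols, and Cyp51 fell (-0.62 ± 0.10 and -0.59 ± 0.09). Against controls, 7 of the 24 were lower at day 2, where 9.99% of all genes were, and 17 at day 6, where 2.39% were. The sterol regulatory element, searched as TCACCCCAC, was in 1 of 16 promoters of the list (6.25%, Hmgcs1), against 0.551% of all promoters and 0.665% of tested genes.

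**Figure D3:**
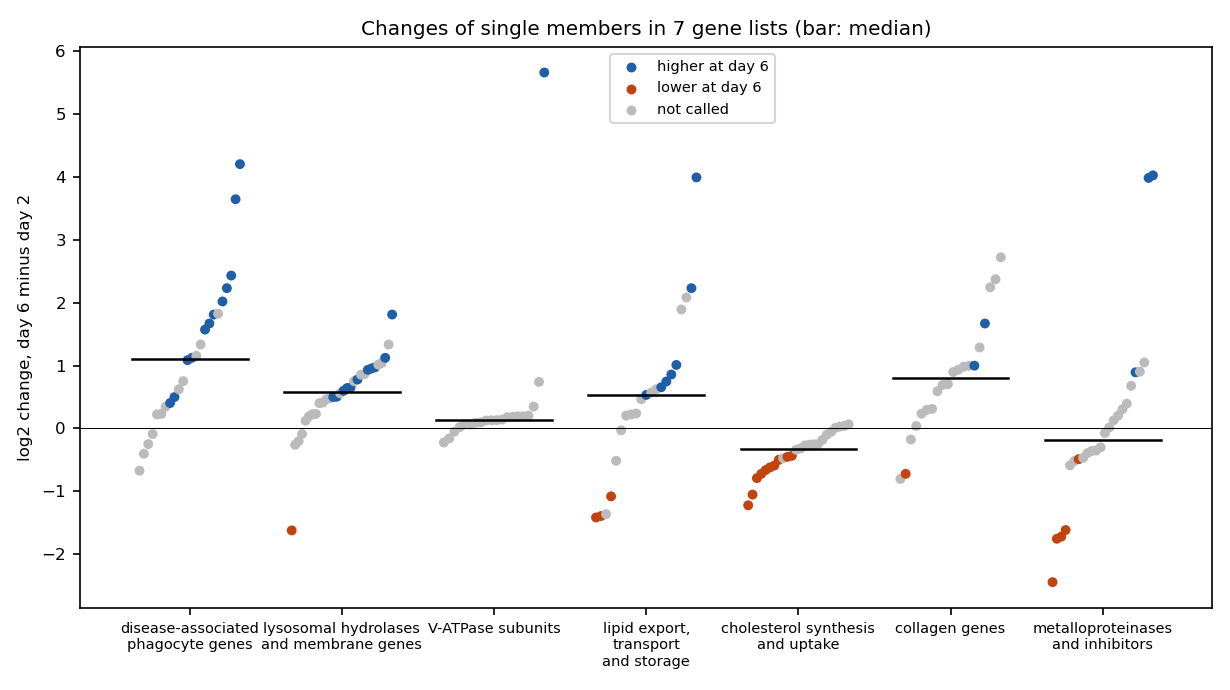
Log2 change from day 2 to day 6 of each tested member of 7 gene lists, ordered within a list; colour marks members called higher (blue), called lower (orange) or not called (grey), and the bar is the list's median. The V-ATPase points lie near 0 apart from Atp6v0d2 at 5.66, and no member of the cholesterol list is called above 0.

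Matrix genes gave large means with a wide spread between the day 6 libraries. Of 20 collagen genes 2 rose and 1 fell, with a median of 0.80, and 8 rose without D6-1. With all libraries, the shares called are not far from the 5.3% of all genes that rose and the 6.26% that fell. The count of rises was 0 without D2-1, D2-3 or D6-3, and 1 without D6-2 or C-2. Col1a1, the main fibrillar collagen of scar, stood at 31.3, 81.4 and 27.9 CPM at day 2 and 108, 486 and 336 CPM at day 6. The days did not overlap, but its change of 2.72 ± 0.70 did not pass the test (adjusted p = 0.0577). Col6a3 of the microfibrillar collagen VI rose by 1.67 ± 0.38 (adjusted p = 0.0194), while the fall of Col16a1 (-0.72 ± 0.20) lost its call in 8 of 19 alternatives. Col10a1 is known from growth cartilage, and had the largest fitted rise among the genes named by rule (chr10:34389981-34397085; its exons overlap those of Nt5dc1 on the other strand). It was at 0.166, 0 and 0.0539 CPM at day 2 and 1.13, 22.4 and 9.695 CPM at day 6, from 4 counts in all at day 2. Every day 6 library was above every day 2 library, with a rise of 7.16 ± 1.37 (adjusted p = 0.0147), and the call was lost in 5 of 19 alternatives, including each fit without 1 day 2 library (largest adjusted p = 0.177). Of 21 matricellular and crosslinking genes, 4 fell and 0 rose: Thbs1 (-2.45 ± 0.39), Tgfbi (-2.09 ± 0.31), Tnc and Tgm2 (-1.25 ± 0.27). Without D6-1, 5 of the list rose, and 1 without D2-2; the call of Tnc was lost without D6-1 or D6-3.

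Proteases split by enzyme. Of 24 metalloproteinases and inhibitors 3 rose and 5 fell. Mmp12, macrophage elastase, was at 4.32, 7.94 and 15.2 CPM at day 2 and 53.9, 237 and 144 CPM at day 6, and Mmp13, a collagenase, at 2.22, 2.87 and 0.971 CPM and 6.59, 61.5 and 31.1 CPM. In both the days were separate, with rises of 3.99 ± 0.70 (adjusted p = 0.0166) and 4.03 ± 0.92 (adjusted p = 0.035), which lost their call in 4 and 10 of 19 alternatives. Mmp9 of neutrophils and vessels fell by 1.72 (SE 0.32) and the inhibitor Timp1 fell by 2.45 (SE 0.25), as did the proteoglycan-cleaving Adamts1 (-1.62 ± 0.23). The count of rises was 0 without D6-3 and 1 without any 1 day 2 library or C-2. The count of falls was 3 without D2-2, D2-3, D6-1 or D6-3. The Mmp12 promoter is shown for its match to the AP-1 element, searched as TGANTCA, which binds Fos and Jun proteins (plus strand of chr9:7347290-7347376, capitals 44 to 38 bases before the start).

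Mmp12: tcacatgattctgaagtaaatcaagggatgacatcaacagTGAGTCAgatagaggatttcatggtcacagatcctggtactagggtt

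This short element was in 4 of 16 promoters of the list (25.0%; Adam19, Mmp3, Mmp12 and Mmp13) against 7.81% of all promoters and 6.45% of tested genes. In the plasminogen and coagulation list 2 of 15 genes rose and 2 fell. Plau, the urokinase that turns plasminogen into plasmin (chr14:20836660-20843385), was at 17.5, 21.9 and 23.8 CPM at day 2 and 64.5, 230.3 and 157 CPM at day 6, against 9.97, 12.9 and 12.99 CPM in controls. The day 6 libraries were all above the day 2 libraries, D6-1 least so, and Plau rose by 2.84 ± 0.45 (adjusted p = 0.00932). Its receptor gene Plaur stood at -0.59 ± 0.53 without passing the test. Serpine2, which inhibits Plau, rose by 0.46 ± 0.12, a call lost without D2-1, D2-2, D6-2 or D6-3, and S100a10, a plasminogen receptor chain, fell (-0.96 ± 0.12). The counts were 4 falls without D6-2 or C-1 and 1 without D6-3, and 1 rise without D2-2, D6-2 or D6-3.

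Genes of dividing cells fell. Of 23 DNA replication genes 19 fell and 0 rose, with a median of -1.31, and of 22 mitosis genes 20 fell and 0 rose, with a median of -1.57. All 22 mitosis genes were lower in every day 6 library than in every day 2 library, against 16.6% of all genes. Without D6-3, 12 of the 22 passed the test. Mcm6, a subunit of the helicase that opens replication origins, was at 23.99, 27.7 and 22.8 CPM at day 2 and 4.12, 8.196 and 5.66 CPM at day 6, against 2.43, 2.05 and 2.12 CPM in controls. The day 6 libraries lay between the others without overlap, and Mcm6 fell by 2.04 (SE 0.22, adjusted p = 0.000147). Rrm1, which makes the DNA building blocks, was at 40.6, 39.98 and 42.4 CPM at day 2 and 17.4, 22.4 and 20.04 CPM at day 6, and Ccnb2, cyclin B2 of mitosis, at 10.1, 9.23 and 8.63 CPM and 2.52, 4.26 and 3.96 CPM. Both fell without overlap, with changes of -1.04 ± 0.14 and -1.38 ± 0.25. Ccne1 did not pass the test, at 0.42 ± 0.16. The promoters of Rrm1 and Ccnb2 are shown. Each gene has the smallest adjusted p of the members that match the letters of an element usual for its list. The letters are those of E2F (TTCCCGCC) in Rrm1 and of the cell cycle homology region (CHR, TTTGAAA) in Ccnb2. The stretches are chr7:102441588-102441675 on the plus strand and chr9:70421675-70421761 on the minus strand.

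Rrm1: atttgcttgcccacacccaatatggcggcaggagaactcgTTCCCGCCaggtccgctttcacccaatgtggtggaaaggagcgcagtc
Ccnb2: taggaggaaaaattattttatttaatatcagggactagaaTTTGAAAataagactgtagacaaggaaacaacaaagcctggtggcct

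The capitals lie 67 to 60 and 167 to 161 bases before the start. In the other called mitosis genes with a match, its first base stands nearer the start, at -20, -15 and 41. The Ccnb2 promoter also holds TTTGAAT nearer the start, outside the stretch shown, which differs from the searched letters in its last base. Whether either Ccnb2 site acts as a CHR was not tested. The E2F element was in 4 of 19 replication promoters (21.1%) against 2.19% of all promoters and 4.33% of tested genes, and the CHR, a short motif, in 4 of 18 mitosis promoters (22.2%) against 6.5% and 5.29%.

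Genes for ribosomes changed little and in 1 direction. Of 85 cytosolic ribosomal protein genes 16 fell and 0 rose, with a median of -0.28. All 3 day 6 libraries were below all day 2 libraries in 42, against 16.6% of all genes. The count was 4 to 8 without D2-2, D2-3, D6-1 or D6-3. Rplp0, of the ribosomal stalk, was at 154, 209 and 168 CPM at day 2 and 119, 113 and 115 CPM at day 6, with a change of -0.61 ± 0.11. Many ribosomal protein genes have near-identical copies elsewhere in the genome, so their counts are uncertain. Of 22 ribosome biogenesis genes 6 fell, led by the nucleolar helicase Ddx21 (-0.76 ± 0.09), and 3 fell without D6-3.

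Many stress response genes fell. Of 18 genes of the NRF2, haem oxygenase and metallothionein list 10 fell and 1 rose. Hmox1, which breaks down haem (chr8:75093621-75100589), was at 145, 321 and 229 CPM at day 2 and 18.9, 50.6 and 38.8 CPM at day 6, against 4.19, 5.76 and 6.87 CPM in controls. The day 6 libraries were below every day 2 library and above every control, with a change of -2.68 (SE 0.44, adjusted p = 0.0104). The metallothionein Mt1 fell by 1.01 (SE 0.14), as did Txnrd1 of the thioredoxin system (-0.80 ± 0.11) and the ferritin chain Fth1 (-0.70 ± 0.14). The iron exporter Slc40a1 rose by 0.69 ± 0.18 (adjusted p = 0.0227, lost without D2-1, D6-2 or D6-3). Erythroid genes, 4 haemoglobin chain genes and the haem synthesis gene Alas2, were at 25.1 to 38.5 CPM summed over 5 genes at day 2, 78.8 to 84.6 at day 6 and 72.7 to 76.1 in controls. Of the 5, 3 rose. Hbb-bs rose by 1.30 ± 0.14 (adjusted p = 0.000114); Hba-a1 and Hba-a2 are near-identical copies, and their split is uncertain.

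Chaperones fell in part. Of 25 genes of the unfolded protein and integrated stress response 7 fell and 0 rose. Hspa5, the main chaperone of the endoplasmic reticulum, was at 515, 524 and 474 CPM at day 2 and 305, 341 and 322 CPM at day 6, and fell by 0.64 (SE 0.09). The integrated stress regulators Atf4 and Ddit3 stood at -0.12 ± 0.09 and -0.44 ± 0.16 and did not pass the test. Of 21 heat shock genes 6 fell and 1, Dnajb5, rose; 3 fell without D2-2 or without D6-3. The mitochondrial chaperonin genes Hspd1 and Hspe1 fell (-0.56 ± 0.09 and -0.52 ± 0.10), while the abundant Hsp90aa1 and Hspa8 stood at 0.10 ± 0.11 and 0.10 ± 0.10. The Hspd1 promoter is shown for 2 overlapping heat shock elements, searched on both strands as GAA, any 2 bases, TTC, any 2 bases, GAA (minus strand of chr1:55088019-55088116, capitals 144 to 127 bases before the start).

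Hspd1: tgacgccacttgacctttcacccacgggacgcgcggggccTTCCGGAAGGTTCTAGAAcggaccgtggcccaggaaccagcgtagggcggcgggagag

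The element was in 4 of 16 promoters of the list (25.0%), against 0.603% of all promoters and 0.585% of tested genes. Hspd1 and Hspe1 are both among the 4, but they share this stretch on opposite strands, so the same site is counted for both. Their exons also overlap on opposite strands, and the strand setting of the counting is not given in the sources used here. Arg1, which splits arginine and marks alternatively activated macrophages, was at 33.02, 80.6 and 58.4 CPM at day 2 and 4.17, 7.33 and 2.75 CPM at day 6, against 0, 0.186 and 0.0833 CPM in controls. It fell by 3.55 without overlap (SE 0.45, adjusted p = 0.00256). Odc1, the next enzyme on the way to polyamines, was at 79.6, 102 and 96.6 CPM at day 2 and 40.6, 34.9 and 34.98 CPM at day 6, and its day 6 libraries lay around the control mean of 36.7 CPM. It fell by 1.33 (SE 0.11, adjusted p = 1.62e-05). Of 16 genes of arginine and polyamine metabolism these were the 2 called, and 4 were called without D6-2. Of 25 glycolysis and hypoxia genes 1 fell, Ero1l (-0.63 ± 0.11), and 0 rose; 2 fell without D2-1.

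Astrocyte genes of injury fell while genes of astrocyte function were mixed. Of 22 reactive astrocyte genes 15 fell and 0 rose, with a median of -1.33. At day 6, 18 of 22 were still called above the controls, against 7.93% of all genes. Ptx3, a pentraxin, was at 38.2, 48.4 and 46.6 CPM at day 2 and 2.52, 4.08 and 4.44 CPM at day 6, and Steap4, a metal reductase, at 35.2, 60.99 and 45.7 CPM and 4.33, 2.98 and 4.93 CPM. Neither overlapped, and their changes were -3.61 ± 0.28 and -3.56 ± 0.32. Nes, the intermediate filament of immature and reactive astrocytes, fell by 2.34 (SE 0.34), and Vim, of the same class, stood at -0.92 ± 0.31 without passing the test (adjusted p = 0.0998). The Steap4 promoter is shown for its match to the STAT3 element, TTCCNGGAA (plus strand of chr5:7960316-7960404, capitals 116 to 108 bases before the start). Whether STAT3 acts on this gene here was not tested.

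Steap4: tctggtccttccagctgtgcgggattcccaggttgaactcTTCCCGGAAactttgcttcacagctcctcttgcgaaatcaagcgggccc

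The element was in 2 of 20 reactive astrocyte promoters (Gfap and Steap4) against 1.15% of all promoters and 1.51% of tested genes. In the acute phase and iron-binding list it was in 1 of 9 promoters, again that of Steap4. Of 20 homeostatic astrocyte genes 3 rose and 3 fell. The glutamate transporter gene Slc1a2 was at 2570.5, 2006 and 2644 CPM at day 2, 3712, 3870.4 and 3770.4 CPM at day 6 and 3988, 3586 and 3939 CPM in controls. It rose by 0.65 ± 0.11, from below the controls to a day 6 value -0.02 from them on the log2 scale. The bicarbonate cotransporter Slc4a4 was at 239.8, 228 and 271 CPM at day 2 and 130.5, 129 and 125 CPM at day 6, with controls at 187, 163 and 178 CPM. All day 2 libraries were above the controls and all day 6 libraries below them, with a change of -0.94 (SE 0.09, adjusted p = 7.04e-05). The water channel Aqp4 fell by 0.59 (SE 0.16, adjusted p = 0.0292), a call lost without any 1 day 2 library, D6-1 or D6-3.

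Proteoglycans that fill the space around neurons included 3 that rose among 20 genes, Bcan, Ncan and Cspg5, and 2 that fell, Cd44 and Sdc4, of which 1 was called without D2-2, D2-3, D6-1 or D6-3. Bcan, brevican of perineuronal nets (chr3:87987531-88000230), was at 98.4, 115 and 107 CPM at day 2 and 225, 234 and 240.1 CPM at day 6, against 225, 229 and 220.3 CPM in controls. Day 2 was low in all 3 libraries, and the ranges of day 6 and controls overlapped. Bcan rose by 1.12 ± 0.09 (adjusted p = 1.06e-05), Ncan by 0.68 ± 0.09 and Cspg5 by 0.56 ± 0.10. Acan and Tnr did not pass the test, at 0.22 ± 0.34 and 0.01 ± 0.11.

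Neuronal genes of several lists rose. Of 22 presynaptic vesicle release genes 10 rose and 0 fell, with a median of 0.37. Of 20 cortical neuropeptide and interneuron genes 9 rose and 0 fell, with a median of 0.52, and of 20 cortical layer transcription factors 8 rose and 0 fell, with a median of 0.35. Stx1a, a membrane protein of synaptic vesicle fusion (chr5:135023482-135051100), was at 151, 176 and 147 CPM at day 2 and 325, 278 and 315 CPM at day 6, against 260.3, 297 and 326 CPM in controls. The day 2 libraries were the lowest 3 of the 9, and day 6 overlapped the controls. Stx1a rose by 0.95 ± 0.11 (adjusted p = 0.000204) and Unc13a, which primes vesicles, by 0.74 ± 0.11 (adjusted p = 0.000911). Snap25, partner of Stx1a in the same complex, stood at 0.51 ± 0.17 and did not pass the test (adjusted p = 0.0728). Against the controls 18 of the 22 were lower at day 2, where 9.99% of all genes were, and 2 at day 6, where 2.39% were. The summed striatal neuron level was highest in D2-3 and uneven among the controls, and its part in these results was not tested. Without D2-3, 6 presynaptic, 8 neuropeptide and 5 layer genes rose. The counts were 6, 5 and 4 without D6-1 and 5, 4 and 4 without D6-3, and 5 layer genes rose and 2 fell without D2-2.

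Among neuropeptides, Adcyap1, the precursor of PACAP, was at 9.14, 7.07 and 3.67 CPM at day 2 and 13.2, 15.8 and 20.4 CPM at day 6 and rose by 1.31 ± 0.28 (adjusted p = 0.0103; 0.0518 without D6-3). Npy and Vip, peptides of cortical interneurons, each rose by 0.85 (SE 0.17 and 0.14), Cck by 0.73 ± 0.18 and Sst by 0.62 ± 0.13. The GABA-synthesizing Gad2 stood at -0.01 ± 0.27 and Penk, which striatal neurons also express, at -1.63 ± 0.99, neither past the test. Emx1, which defines the dorsal forebrain, was at 10.4, 12.8 and 11.5 CPM at day 2 and 24.7, 23.2 and 24.5 CPM at day 6, against 24.002, 25.2 and 26.6 CPM in controls. Day 2 was below all other libraries, with a rise of 1.06 ± 0.13 (adjusted p = 0.00026). Lhx2 and Mef2c of cortical projection neurons rose by 0.86 ± 0.16 and 0.75 ± 0.14. Bcl11b and Foxp2, which striatal neurons also express, did not pass the test, at -0.69 ± 0.31 and -0.81 ± 0.52.

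**Figure D4:**
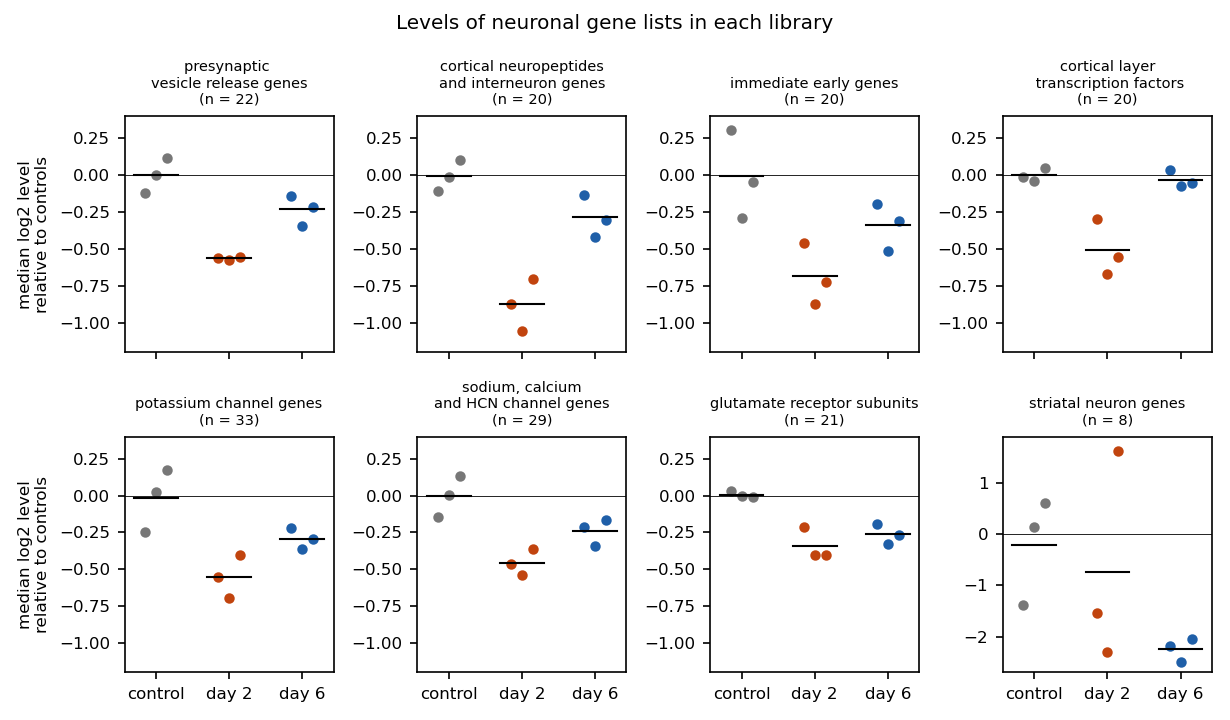
Median log2 level of the tested members of 8 neuronal gene lists relative to the control mean (CPM + 0.5), in each of the 9 libraries; bars are group means, and the striatal panel has a wider axis. The 3 day 2 libraries of the presynaptic list lie between -0.58 and -0.55 and the day 6 libraries between -0.34 and -0.14, while in the striatal list D2-3 stands at 1.62.

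Immediate early genes, which neurons switch on within minutes of activity, were mixed. Of 20, 5 rose and 1 fell. Egr1 was at 152, 125 and 182 CPM at day 2 and 356, 292 and 337 CPM at day 6, and rose by 1.10 ± 0.17 (adjusted p = 0.00258), as did Npas4, which responds to calcium entry in neurons, by 1.25 ± 0.24 (adjusted p = 0.00686). Egr3, Egr4 and Nr4a1 rose as well, by 0.91 ± 0.11, 1.16 ± 0.20 and 0.98 ± 0.16. Fos and Arc did not pass the test, at -0.06 ± 0.22 and 0.25 ± 0.19, and Fosl1, which injury and growth factors induce, fell by 1.12 (SE 0.25). The count of falls was 4 without C-1 and 2 without C-3.

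Ion channel genes gave smaller rises. Of 33 potassium channel genes 9 rose and 0 fell, with a median of 0.23; 4 rose without D2-3, D6-1 or D6-3, and 1 fell without D2-2, C-1 or C-3. Kcnv1, a silent subunit that modifies other channels, Kcnh3 of the forebrain and the inward rectifier Kcnj4 rose by 1.06 ± 0.27, 0.93 ± 0.15 and 0.72 ± 0.12. Of 29 sodium, calcium and HCN channel genes 7 rose and 1 fell, all 7 encoding calcium channel subunits, led by Cacng3 with 0.84 ± 0.10. The count of rises was 4 without D6-1 and 2 without D6-3, and the fall of Scn3a was lost in 15 of 19 alternatives. Of 21 glutamate receptor subunits 5 rose and 0 fell, Grin2c of the NMDA receptor by 0.96 ± 0.13. The count of rises was 2 without D2-3 and 1 without D6-1 or D6-3, and 2 fell without D2-2 and 1 without D2-3, C-1 or C-3. Of 14 GABA receptor subunits 1 rose, Gabbr2 by 0.50 ± 0.10, which is near the background share; 2 rose without D2-3 and 3 without C-1.

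Growth genes of axons went both ways. Of 17, 5 rose and 5 fell. Tubb2b, a tubulin of growing neurites that glial progenitors also express, was at 189, 191 and 174 CPM at day 2, 87.9, 78.2 and 79.02 CPM at day 6 and 99.03, 67.3 and 65.7 CPM in controls. Day 2 was above all others, with a change of -1.18 (SE 0.14, adjusted p = 0.000258), and Sox11 and Klf6, transcription factors of axon regrowth, fell (-0.68 ± 0.17 and -0.43 ± 0.09), Sox11 with its call lost without D2-1, D6-1 or D6-3. Nrn1, neuritin, and Tubb3, the neuronal tubulin, rose by 1.04 ± 0.13 and 0.70 ± 0.09, and Gap43 stood at -0.17 ± 0.16 without passing the test. The count of falls was 3 without D2-1 or D6-1, and 2 without D6-3.

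Of 41 axon guidance genes 3 rose and 1 fell, and 6 rose without D2-2. The share that rose is near the 5.3% of all genes, and the share that fell is below the 6.26% of all genes. Efna5, a repellent of growing axons, was at 22.2, 20.04 and 26.5 CPM at day 2 and 45.004, 50.1 and 43.2 CPM at day 6, against 27.1, 37.5 and 46.5 CPM in controls. It rose without overlap by 1.01 ± 0.17 (adjusted p = 0.00328), as did the repellent Slit2 by 0.72 ± 0.13 and the semaphorin receptor Plxnd1 by 0.68 ± 0.13. The fall of Sema5a (-0.34 ± 0.09) was lost in 8 of 19 alternatives.

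Growth factors of the TGF-beta family changed in single members. Of 22 genes 2 rose and 2 fell, shares not far above the 5.3% of all genes that rose and the 6.26% that fell. Bmp4, which steers neural progenitors toward astrocytes, was at 2.16, 3.18 and 2.53 CPM at day 2 and 6.23, 6.96 and 5.74 CPM at day 6, against 2.68, 3.46 and 2.71 CPM in controls. Day 6 was above both other groups without overlap, with a rise of 1.26 ± 0.25 (adjusted p = 0.00555), whereas its target Id1 fell by 0.65 (SE 0.19, lost in 6 of 19 alternatives). The main ligand Tgfb1 stood at 0.11 ± 0.26 and did not pass the test (adjusted p = 0.831). The counts lay between 1 and 3 in each direction without 1 library, with 1 rise without D2-1, D6-2 or D6-3, and 1 fall without D2-2, D2-3, C-2 or any 1 day 6 library.

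Oligodendrocyte and vessel genes changed in few members. Of 16 myelin genes 0 rose and 1 fell, a share near the 6.26% of all genes that fell. Mbp stood at -0.11 ± 0.26, and the summed myelin level was 7557 CPM in D2-3 and 3779 and 4591 in the other day 2 libraries. In C-1, C-2 and C-3 that level was 4505, 7749 and 5840 CPM. The fall of Trf was lost without D2-3, D6-1 or D6-3, and 2 to 3 fell without D2-1, D2-2, C-1 or C-2. Gpr17, which marks oligodendrocyte precursors on their way to maturity, was at 38.2, 34.2 and 34.8 CPM at day 2 and 72.2, 83.9 and 79.9 CPM at day 6, against 61.9, 51.4 and 42.8 CPM in controls. All day 2 libraries were below the controls and all day 6 libraries above them, and Gpr17 rose by 1.14 ± 0.13 (adjusted p = 0.000149). Of 18 endothelial genes 1 rose, Itm2a by 0.54 ± 0.09, a share near the 5.3% of all genes that rose. Pecam1 and Ly6c1 fell, with 5 falling without D2-1. The tight junction gene Cldn5 stood at -0.18 ± 0.16. Of 21 angiogenesis genes Aplnr, Cd34 and Vegfa rose and Esm1 and Adm, induced in sprouting and hypoxic vessels, fell; the count of rises was 0 without D2-1 or D6-3 and 1 without D6-2, and that of falls was 4 without D2-1, 0 without D6-3 and 1 without D2-2 or D2-3. Of 14 fibroblast genes 3 rose, Mfap5 by 4.63 ± 1.00, Fmod by 1.98 ± 0.40 and Col15a1 by 1.00 ± 0.28, and 1 rose without D6-2; the call of Mfap5 was lost with limma voom, and that of Col15a1 in 6 of 19 alternatives. Igfbp3 and Igfbp2, binding proteins of the IGFs, fell (-1.82 ± 0.32 and -1.16 ± 0.25) while Igf1 rose; 1 of the 2 was called without D2-3 or without any 1 day 6 library.

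**Figure D5:**
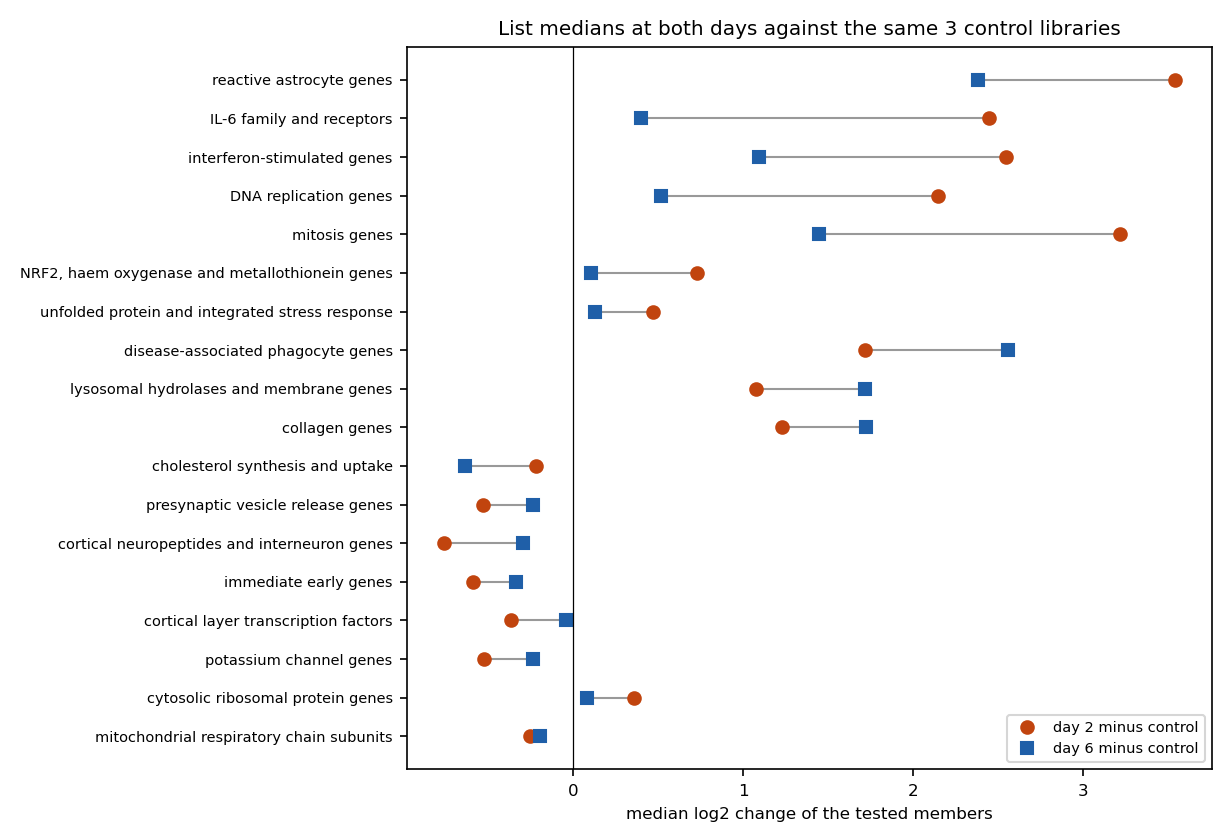
Median log2 change of the tested members of 18 gene lists at day 2 (orange circles) and at day 6 (blue squares) against the same 3 control libraries. DNA replication genes stand at 2.15 at day 2 and 0.52 at day 6, phagocyte genes at 1.72 and 2.56, cholesterol genes at -0.22 and -0.63, and presynaptic genes at -0.53 and -0.23.

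Set side by side against the shared controls, the lists followed different courses. Medians of IL-6 family genes went from 2.45 at day 2 to 0.40 at day 6, of interferon-stimulated genes from 2.54 to 1.10 and of reactive astrocyte genes from 3.54 to 2.38. Phagocyte and lysosomal medians went from 1.72 to 2.56 and from 1.08 to 1.72. The cholesterol median went from -0.22 to -0.63, farther from the controls, and that of neuropeptide genes from -0.76 to -0.29, nearer to them.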

How the data were processed

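Whole-tissue RNA of brain cortex was sequenced as poly(A)-selected, paired-end Illumina libraries. The deposited table holds raw counts per gene for all libraries, whole numbers not normalized by the authors. HISAT2 2.1.0 and mm10 appear in the submitters' processing notes; how reads were assigned to genes, and whether strand was used, is not given in the sources used here. Of 26783 lines, 865 identical surplus copies were dropped, leaving 25918 gene names. Fewer counts in a library widen its error, so genes with few counts are the least certain.

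The 9 cortex libraries were fitted together in edgeR 4.0.16 (R 4.3.3; filterByExpr by group, TMM factors, robust quasi-likelihood F test, two-sided, prior count 0.125), with p-values adjusted by the Benjamini-Hochberg method over 18151 genes and called below 0.05; the code was tested on simulated data. Lists had no test. The members and lists were chosen with earlier results of these data known. Named genes were the 12 largest called changes in each direction at 5 CPM or more without overlap, the 8 largest differences of mean CPM, and in each list the smallest adjusted p-values, called members against the trend and members that did not pass; Gla, Mcoln1, Adam19, Mmp3 and Hmgcs1 were named for a motif, and a few other list members after their values were seen. Alternatives were other factors and filters, DESeq2 1.42.0, limma voom 3.58.1, a replicate block, the 6 libraries alone, other thresholds, other library sizes, and each library left out; a fit without structural RNA genes was added after seeing the data. Promoters came from RefSeq (GRCm38.p6) and matched 958 of 1275 list genes by symbol; positions came from GENCODE M21, which held 25514 of the names. A few genes that the naming rule covers are not reported here.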

Additional observations from a re-analysis of the deposited data

How the results depend on the processing

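The main count of 2099 changed genes (962 higher, 1137 lower) was 776 (365 and 411) at an adjusted p of 0.01 and 628 (201 and 427) when a 2-fold change was also required, both by construction. Without 1 library it ranged from 910 to 2329, the count of rises from 425 to 1177 and that of falls from 485 to 1152. The count was lowest without D6-3, D2-3 or D6-1. Fewer libraries enter every fit of this kind, and why these fits gave the lowest counts was not tested. Under the other factors, filters, tools and library sets it ranged from 1941 to 2798, the last with DESeq2. Of 231 named genes 164 kept the call in every 1 of the 19 alternatives that tested them. A gene absent from a fit was not counted as lost there. The call was lost only when a library was left out in 44 genes, and 0 changed direction in any alternative.

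Replicate numbers are shared between the days, and deviations of same-numbered libraries correlated at 0.110, 0.085 and -0.004. D2-1 and D2-2 correlated best with the day 6 library of their own number, and D2-3 did not. The labels state no pairing, and the numbers were not taken as pairs in the main fit. With a replicate block 2326 genes were called (1083 higher, 1243 lower), 1975 of them shared with the main result, and 5 named genes lost the call (Cd44, CT010467.1, Lars2, Rn7sk and Scn3a). Depth limits most the genes with few counts at 1 day, such as Cxcl2, Cxcl3, Il6, Il1f9 and Stfa2l1.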

Other observations

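Of 79 nuclear-encoded subunits of the mitochondrial respiratory chain, the enzymes of oxidative energy production, edgeR called 0 higher and 0 lower between day 2 and day 6, with 6 at an unadjusted p below 0.05; DESeq2 and limma voom each called 0, and edgeR with a replicate block called 1 higher. Their median change from day 2 to day 6 was 0.06. Against the shared controls 21 were lower at day 2, where 9.99% of all genes were. At day 6, 3 were lower, a share near the 2.39% of all genes.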
